A study of Mus musculus with 2 samples.

Results

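The genes described here belong to DNA replication and entry into S phase. They cover the control of origin licensing, the proteins that switch on and travel with the replication fork, and the enzymes that supply nucleotides. Also included are the cyclin and E2F genes of the G1/S transition and 3 genes of histone supply and uracil repair. All were chosen by name, as a list of 39 mouse genes, and matched to the deposited expression table by Entrez identifier. All 39 were found among the 13056 features of that table that carry such an identifier. The table gives FPKM, the fragments of a transcript scaled to its length and to the size of the library, in 2 libraries. Both hold RNA of cultured CD4+ T cells; the mice were wild-type C57BL/6 animals of 6 to 8 weeks, and the culture lasted 48 h in conditions that polarize towards T helper 17 (Th17) cells. Antigen presenting cells (APCs) were present in each culture, wild type (WT) in one and carrying an OX40L transgene (OX40L-TG) in the other; OX40L binds OX40, a costimulatory receptor on activated T cells. Each library was made from 1 µg of RNA. The promoter of the transgene, the kind of APC and the number of mice behind each culture are not given by the labels.

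Replication is prepared before S phase, when the origin recognition complex (ORC) loads the ring-shaped MCM helicase onto DNA with the help of Cdc6 and Cdt1. Cyclin E with its kinase, and the kinase Cdc7, then turn the loaded ring into an active helicase that also holds Cdc45 and the GINS complex, and polymerases follow it. Many of these genes are transcribed under the control of E2F factors, which are held back by the retinoblastoma protein until a cell commits to divide. Naive CD4+ T cells are quiescent, and after activation they switch this programme on and divide in culture.

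Each condition was represented by 1 library, so there is no replicate check, no test and no standard error. Every statement compares these libraries and not the conditions. From the steps of low FPKM values the libraries were estimated to hold 23400000 (WT APCs) and 26800000 (OX40L-TG APCs) fragments. Ratios are given with 95% exact Clopper-Pearson intervals of the estimated fragment numbers, which cover counting error and neither cultures nor mice. Changes are log2((OX40L-TG FPKM + 1)/(WT FPKM + 1)). In bulk RNA a larger share of cells in S phase and more RNA per cycling cell cannot be told apart. T cell identity genes were high in both libraries: the 11 that were matched summed to 2538 FPKM with WT APCs and 2711 FPKM with OX40L-TG APCs, and the lowest single value was 86.5 FPKM (Cd3e).

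The replication genes were expressed at moderate to high levels in both libraries, and most were slightly higher with OX40L-TG APCs. None of the 39 reached 2-fold in either direction. Of the 10645 annotated genes that passed 1 FPKM in a library, 2.26% were higher by that fold and 1.32% lower. For a list of 39 genes a count of 0 is near those shares. These calls use FPKM + 1, and on that scale none reached 1.5-fold either, which 7.21% of all genes did upwards and 3.38% downwards; the plain FPKM ratio of Pold1 was 1.51. At a smaller limit on the same scale, 14 of 39 were at least 25% higher in FPKM + 1 and none was at least 20% lower, beside 21.5% and 7.14% of all genes. The change was above 0 for 36 of the 39 and for 68.3% of all genes. The median change of the 39 was 0.29, with an interquartile range of 0.19 to 0.37, against a median of 0.11 for all genes (interquartile range -0.05 to 0.29). Of the 39, 30 lay above the median of all genes and 9 below, and 20 lay above percentile 75 of all genes; by construction 50% and 25% of all genes do. With the median ratio of well-expressed genes (the 6038 with at least 10 FPKM in both libraries) set to 1, which lowers every log2 ratio by 0.13, the median of the members was 0.17, with 30 above and 9 below 0.

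**Figure D1:**
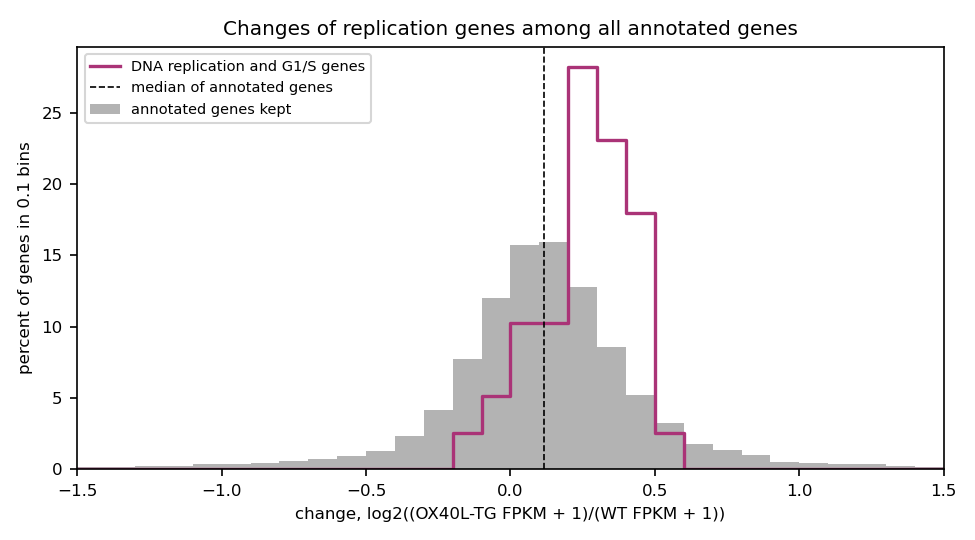
Share of genes (percent, vertical axis) by change on the log2(FPKM + 1) scale (horizontal axis, bins of 0.1) for 10645 annotated genes in grey and the 39 replication and G1/S genes as a line, with the median of all genes dashed. The replication genes lie between -0.17 and 0.58, mostly to the right of the dashed line at 0.11.

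The members' own spread was narrow. The standard deviation of their changes was 0.17, against 0.44 over all genes and 0.40 over the 6303 genes within the members' range of mean FPKM (9.31 to 217). By interquartile range the contrast was smaller, 0.19 to 0.37 for the members and -0.02 to 0.27 for the genes in that range. Genes in that range had a median change of 0.12, and 30 of the 39 members lay above it. Across the members, the change was unrelated to the level in rank (Spearman's rho of 0.05 over 39 genes of the same libraries, as a description). Their order by level was nearly the same in both libraries, with a Spearman's rho of 0.98 between them. For 33 of the 39 the counting interval of the ratio lay above 1, for 4 it included 1 and for 2 it lay below 1. Over the 10356 annotated genes with a known length 49.1% had an interval above 1 and 17% below. Against the median ratio of well-expressed genes, 1.09, the interval of 28 members lay above, that of 6 included it and that of 5 lay below. Of the 10356 genes 31% lay above it, and the share below it was not computed. These shares include genes of lower FPKM than any member, whose intervals are wider. They were not computed within the members' range of FPKM, so the counts of intervals are not matched for level.

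**Figure D2:**
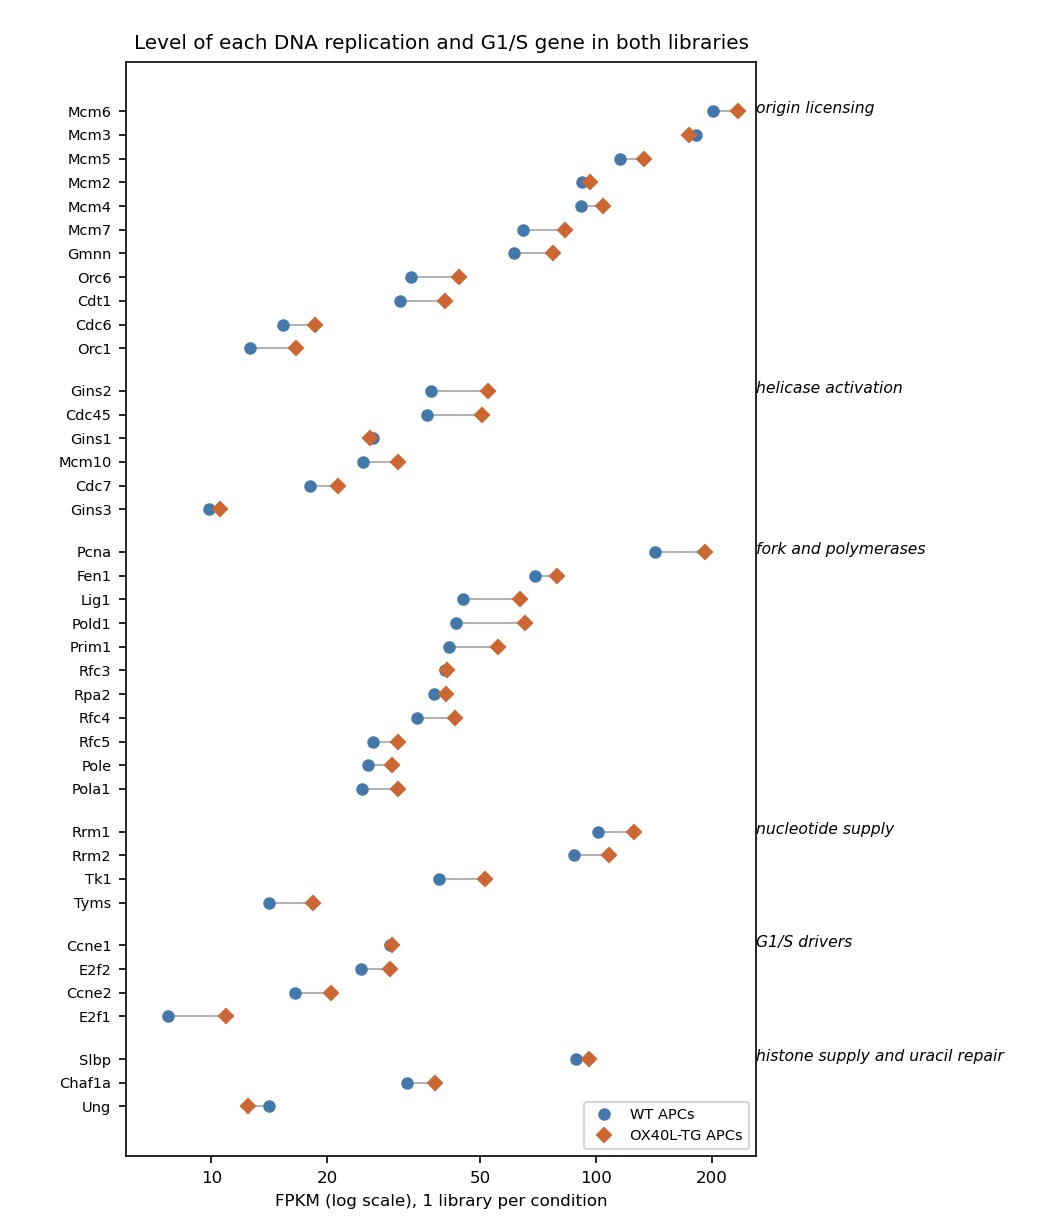
FPKM on a log axis for each of the 39 genes in the WT-APC library (circles) and the OX40L-TG-APC library (diamonds), grouped by role and ordered by level, with 1 library per condition. The values run from 7.72 FPKM (E2f1, WT APCs) to 233 FPKM (Mcm6, OX40L-TG APCs), and in most rows the diamond lies to the right of the circle.

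The members were chosen by name and not by promoter sequence. Since many such genes are known to be under E2F control, a count of E2F words is not independent of that choice. RefSeq promoter windows of build GRCm38.p6, from 250 bases before to 50 after an annotated start, were matched for 33 of the 39 genes. The E2F motif was searched on both strands as the words TTTCCCGC, TTTGCCGC, TTTGGCGC and TTTCGCGC. At least 1 word was found in 13 of the 33 (39.4%), in 704 of the 27025 genes with a window (2.605%), and in 450 of the 8587 kept genes with a window (5.24%). The 13 members were Cdc6, Cdt1, E2f2, Gins3, Lig1, Mcm3, Mcm5, Mcm6, Mcm7, Orc1, Pola1, Pold1 and Rfc3. Words of opposite strands can overlap, as TTTGGCGC and TTTCGCGC do by 4 bases in Mcm5 and Mcm6. The CCAAT box was found in 20 of the 33 (60.6%) and in 43.7% of kept genes, and TTTGAA, part of the promoter element of G2/M genes, in 6 of 33 (18.2%) and 14.03% of kept genes.

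Sequence before the annotated start used is shown for 4 of these genes, since words in it lie outside every exon that GENCODE M21 annotates. Exonic bases were left off, and for Cdc6 the stretch lies within the printed gene locus. Each sequence is on the strand of the gene, with the E2F words in capitals. The changes of these genes were 0.21 for Mcm5 and Mcm6, 0.26 for Cdc6 and 0.30 for Pola1. They lie at chr1:128359706-128359955 (Mcm6, minus strand), chr8:75109259-75109508 (Mcm5, plus), chr11:98907982-98908150 (Cdc6, plus) and chrX:93632156-93632405 (Pola1, minus).
Mcm6: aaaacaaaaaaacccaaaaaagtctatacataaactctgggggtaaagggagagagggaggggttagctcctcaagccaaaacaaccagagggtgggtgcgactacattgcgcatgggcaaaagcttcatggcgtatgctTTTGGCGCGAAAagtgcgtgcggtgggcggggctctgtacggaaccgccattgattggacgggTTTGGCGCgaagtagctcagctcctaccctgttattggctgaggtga
Mcm5: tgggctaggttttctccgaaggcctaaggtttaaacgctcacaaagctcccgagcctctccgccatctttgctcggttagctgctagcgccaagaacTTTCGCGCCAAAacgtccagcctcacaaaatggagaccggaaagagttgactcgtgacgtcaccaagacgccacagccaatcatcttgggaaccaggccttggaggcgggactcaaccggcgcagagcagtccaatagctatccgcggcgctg
Cdc6: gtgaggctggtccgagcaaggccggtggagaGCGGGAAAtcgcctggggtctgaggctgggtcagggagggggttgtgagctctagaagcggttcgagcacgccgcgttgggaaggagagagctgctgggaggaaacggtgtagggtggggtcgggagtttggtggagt
Pola1: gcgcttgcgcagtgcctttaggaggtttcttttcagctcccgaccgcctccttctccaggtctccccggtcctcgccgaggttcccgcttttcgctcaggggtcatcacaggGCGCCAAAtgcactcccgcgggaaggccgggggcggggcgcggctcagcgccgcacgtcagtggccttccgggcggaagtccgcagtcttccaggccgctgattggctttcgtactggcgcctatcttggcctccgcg

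In Mcm6 the words begin 110, 106 and 47 bases before the start, and in Mcm5 153 and 149 bases before it. Cdc6 and Pola1 have 1 word each, and both begin 138 bases before the annotated start used. For Cdc6 that start lies inside the printed locus, which begins at 98907888 on the plus strand. The Cdc6 sequence shown, from 98907982 to 98908150, is therefore within the printed locus and not upstream of it. Members with a word had a median change of 0.26 and members with a window but no word 0.30. Among all kept genes with a window the medians were 0.15 with a word and 0.11 without. A word is a match of letters and no evidence of E2F binding in these cells.

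Origin licensing genes were higher as a group with the exception of some MCM subunits. The 11 genes had a median change of 0.26, 9 lay above the median of all genes, and none reached 2-fold. Orc1 encodes the largest ORC subunit, which binds origins and is itself controlled through the cell cycle. It stood at 12.6 FPKM with WT APCs and 16.6 FPKM with OX40L-TG APCs. Orc6, the gene of another subunit, stood at 33.0 and 43.9 FPKM (ratio 1.33, interval 1.23 to 1.44). The printed locus of Orc6 (chromosome 8, 85299631 to 85308279) holds no other gene, whereas that of Orc1 spans 3 more. Cdc6, the ATPase gene that helps to load MCM, stood at 15.4 and 18.6 FPKM, and its partner Cdt1 at 30.9 and 40.5 FPKM. Gmnn encodes geminin, which binds Cdt1 and blocks licensing once S phase has begun, and it stood at 60.9 and 77.1 FPKM. Cdt1 and its inhibitor were thus both higher, with changes of 0.38 and 0.33, and Gmnn made up 66.3% (WT APCs) and 65.5% (OX40L-TG APCs) of their summed FPKM.

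The subunits of the MCM2-7 helicase ring assemble in equal numbers in the protein complex, but their transcripts were neither equally abundant nor equally changed. Mcm6 was the most abundant of all members, at 201 FPKM with WT APCs and 233 FPKM with OX40L-TG APCs, a ratio of 1.16 (1.14 to 1.18). Mcm3 was the next most abundant subunit of the ring, at 181 and 174 FPKM, a ratio of 0.959 (0.937 to 0.983). It was 1 of the 3 members that were lower with OX40L-TG APCs. Mcm5 stood at 115 and 133 FPKM (ratio 1.15, interval 1.12 to 1.19). Mcm4 stood at 91.1 and 104 FPKM (ratio 1.14, interval 1.11 to 1.18). Mcm2, whose product carries histones and is a target of Cdc7, stood at 92.1 and 96.2 FPKM (ratio 1.04, interval 1.01 to 1.08). With the median ratio set to 1 its change turned from 0.06 to -0.06. Mcm7, the least abundant subunit, stood at 64.4 and 82.7 FPKM and had the largest ratio of the ring, 1.28 (1.24 to 1.33). Its printed locus (chromosome 5, 138164588 to 138184548) also overlaps Ap4m1, Taf6 and the microRNA genes Mir25, Mir93 and Mir106b. Summed over the ring, the level came to 745 FPKM (WT APCs) and 823 FPKM (OX40L-TG APCs), a ratio of 1.10, close to the median ratio of 1.09 of well-expressed genes. The highest subunit exceeded the lowest 3.11-fold (WT APCs) and 2.82-fold (OX40L-TG APCs).

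**Figure D3:**
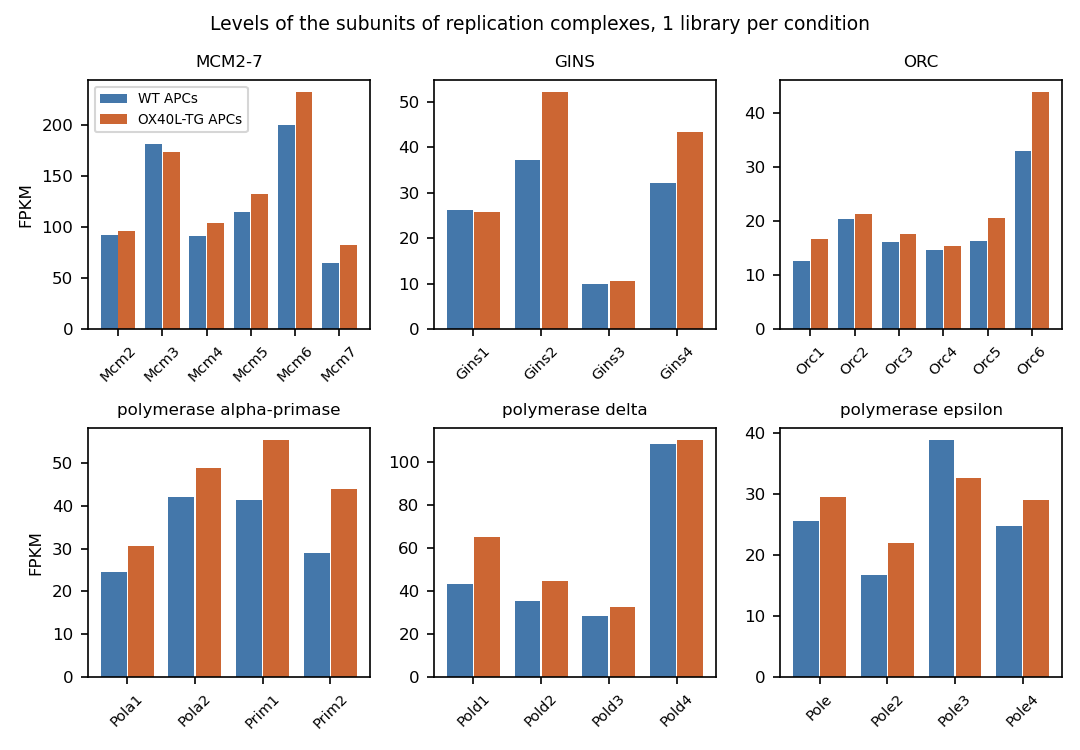
FPKM of each subunit gene in the WT-APC library (blue bars) and the OX40L-TG-APC library (orange bars) for 6 replication complexes, on axes that start at 0, with 1 library per condition. Mcm3, Gins1 and Pole3 are the subunits in these panels whose orange bar is the shorter one.

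Genes that turn the loaded ring into a moving helicase ranged from a change of -0.02 to 0.48. The 6 had a median change of 0.26, and 4 lay above the median of all genes. Cdc45, a subunit of the active helicase, stood at 36.4 FPKM with WT APCs and 50.6 FPKM with OX40L-TG APCs, a ratio of 1.39 (1.31 to 1.48). Gins2, a subunit of the GINS complex, stood at 37.3 and 52.2 FPKM (ratio 1.40, interval 1.34 to 1.46). Gins1, another subunit, stood at 26.2 and 25.8 FPKM, a ratio of 0.985 with an interval that included 1 (0.886 to 1.09). Gins3 was the least abundant of the GINS genes at 9.84 and 10.5 FPKM, a ratio of 1.07 whose interval (0.958 to 1.20) also included 1. Gins4, which is not among the 39, stood at 32.2 and 43.3 FPKM. Within GINS the genes therefore fell into a higher pair, Gins2 and Gins4, and a pair near 1, Gins1 and Gins3, and the direction of Gins3 turned from 0.09 to -0.03 with the median ratio set to 1. The printed loci of Cdc45 and Gins2 overlap Ufd1 and Gse1, respectively, and those of Gins1, Gins3 and Gins4 hold no other gene. Mcm10, which helps to activate the helicase, stood at 24.7 and 30.6 FPKM. Cdc7, the kinase gene, stood at 18.0 and 21.3 FPKM, while its activating subunit Dbf4, outside the 39, stood at 36.6 and 33.8 FPKM.

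Fork genes held the 2 largest changes, and all 11 were above 0, with a median of 0.30. Pold1 encodes the catalytic subunit of polymerase delta, the main enzyme of the lagging strand, and it had the largest ratio of the 39. It stood at 43.3 FPKM with WT APCs and 65.1 FPKM with OX40L-TG APCs, a ratio of 1.51 (1.44 to 1.57). On the log2(FPKM + 1) scale its change was 0.58, rank 789 of 10645 genes, and its printed locus (chromosome 7, 44532743 to 44548815) also holds the microRNA gene Mir7053. Lig1, the ligase gene that seals Okazaki fragments, stood at 45.1 and 63.4 FPKM (ratio 1.40, interval 1.35 to 1.47). Pcna encodes the sliding clamp that tethers polymerases and was the most abundant fork gene. It stood at 142 and 192 FPKM (ratio 1.35, interval 1.31 to 1.40), at a printed locus with no other gene (chromosome 2, 132249285 to 132253180). Prim1, the gene of the primase catalytic subunit, stood at 41.4 and 55.5 FPKM (ratio 1.34, interval 1.26 to 1.43). Pola1, the catalytic gene of polymerase alpha that extends those primers, stood at 24.7 and 30.6 FPKM. Pole, the catalytic gene of polymerase epsilon on the leading strand, stood at 25.5 and 29.5 FPKM. Fen1, the flap nuclease gene of Okazaki fragment maturation, stood at 69.4 and 79.3 FPKM.

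Among the clamp loader and single-strand binding genes, Rfc3 and Rpa2 had the lowest changes of the fork group. Rfc4 stood at 34.2 and 42.9 FPKM and Rfc5 at 26.3 and 30.5 FPKM, whereas Rfc3 was at 40.5 and 40.9 FPKM, a ratio of 1.01 (0.935 to 1.09). All of them encode small subunits of replication factor C, which loads the clamp. Rpa2, a subunit gene of the single-strand binding protein RPA, stood at 37.9 and 40.7 FPKM (ratio 1.07, interval 1.01 to 1.15). With the median ratio set to 1, the changes of Rfc3 and Rpa2 were -0.11 and -0.02. Of the polymerase subunits not among the 39, Prim2 (29.0 to 44.0 FPKM, WT to OX40L-TG) was as high in ratio as Pold1, 1.52 (1.42 to 1.62), and Pole3 (38.9 to 32.7 FPKM) was lower, 0.840 (0.784 to 0.901). Within polymerase delta the changes ran from 0.58 for Pold1 to 0.03 for Pold4 (109 to 111 FPKM).

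**Figure D4:**
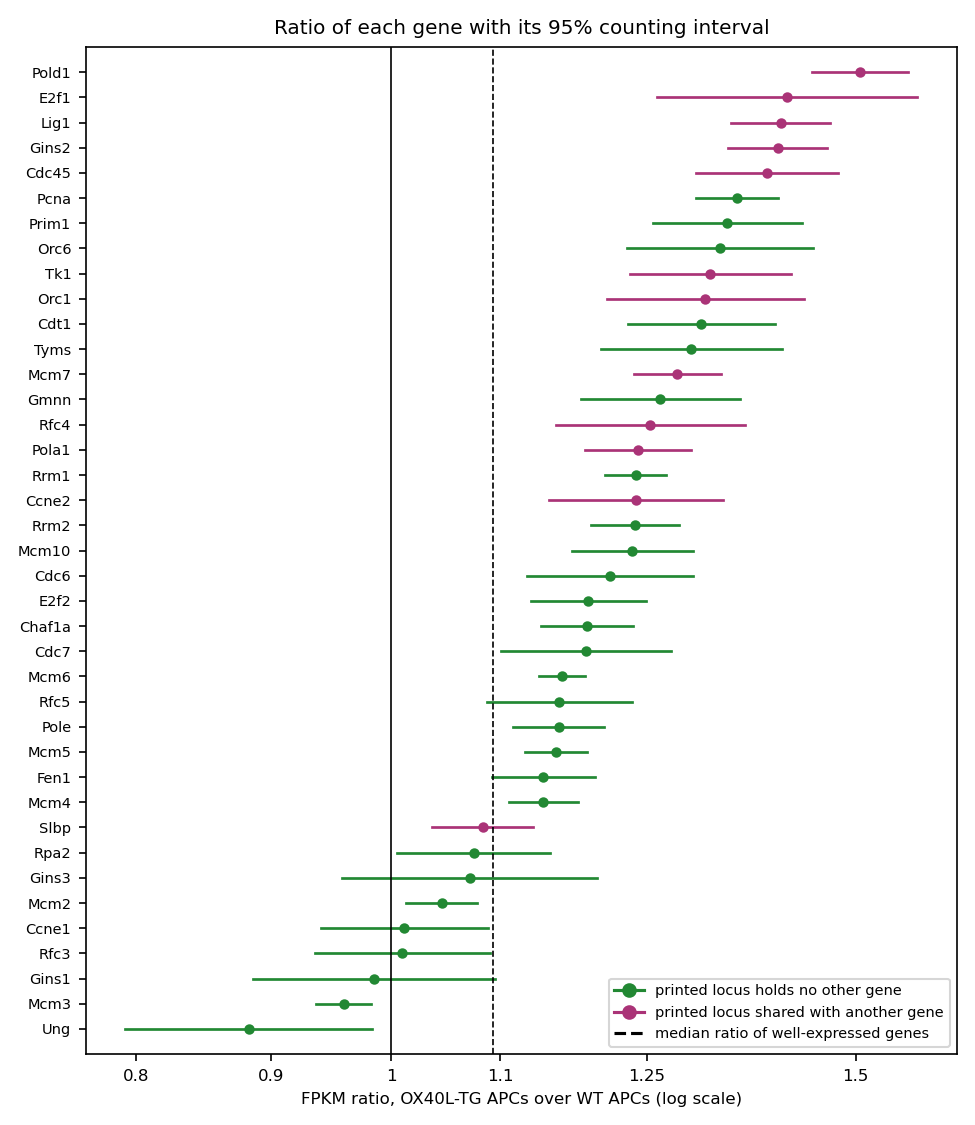
FPKM ratio, OX40L-TG APCs over WT APCs, on a log axis for each of the 39 genes in order of the ratio, with 95% counting intervals as bars. Green marks genes whose printed locus holds no other gene and purple marks shared loci, the solid line is a ratio of 1 and the dashed line the median ratio of well-expressed genes, 1.09. Ratios run from 0.883 (Ung) to 1.51 (Pold1), and the 5 highest are all purple.

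All 4 nucleotide supply genes exceeded the all-gene median, with changes of 0.30 to 0.39 and a median of 0.33. Rrm1 and Rrm2 encode the large and small subunits of ribonucleotide reductase, which makes deoxynucleotides. Rrm1 stood at 101 FPKM with WT APCs and 125 FPKM with OX40L-TG APCs, and Rrm2 at 87.4 and 108 FPKM. Their ratios, 1.238 and 1.237, differed by less than counting error, and Rrm1 made up 53.7% of their sum in both libraries. Tyms, the gene of thymidylate synthase, stood at 14.2 and 18.4 FPKM, and Tk1, the gene of the S phase thymidine kinase, at 39.0 and 51.5 FPKM. The locus printed for Tk1 overlaps Afmid, while those of Rrm1, Rrm2 and Tyms hold no other gene.

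Among the G1/S drivers, the paired family members differed from each other. E2f1, an activating E2F gene and the least abundant of the 39 by mean FPKM, stood at 7.72 FPKM with WT APCs and 10.9 FPKM with OX40L-TG APCs, a ratio of 1.41 (1.26 to 1.58). Its printed locus (chromosome 2, 154288444 to 154609447) holds 10 other reference genes. One of them, Cdk5rap1, had a change of 0.55 at a like level, 7.08 and 10.9 FPKM. E2f2 was the more abundant activator, at 24.5 and 29.1 FPKM, a ratio of 1.19 (1.13 to 1.249), at a locus with no other gene. Ccne2 stood at 16.5 and 20.5 FPKM (ratio 1.24, interval 1.15 to 1.34), and Ccne1 at 29.2 and 29.5 FPKM, a ratio of 1.01 (0.940 to 1.09). Both genes encode cyclin E proteins, and Ccne1 accounted for 63.8% (WT APCs) and 59.04% (OX40L-TG APCs) of their summed FPKM. With the median ratio set to 1 the change of Ccne1 turned from 0.02 to -0.11, and that of Ccne2 remained above 0.

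The 3 remaining members had a median change of 0.11, equal to that of all genes at this rounding. Chaf1a, the large subunit gene of the chromatin assembly factor CAF-1, which places histones behind the fork, stood at 32.2 FPKM with WT APCs and 38.2 FPKM with OX40L-TG APCs. Slbp encodes the protein that binds the stem-loop of replication-dependent histone mRNAs, and it stood at 88.5 and 95.9 FPKM. With the median ratio set to 1 the change of Slbp turned from 0.11 to -0.01. Ung, the gene of a glycosylase that removes uracil from DNA, was the lowest of the 39 by change, at 14.1 and 12.5 FPKM, a ratio of 0.883 (0.793 to 0.983). Ung was the only member besides Mcm3 whose whole counting interval lay below 1 on the full-table FPKM. The upper limit was 0.983 for both, close to 1.

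Where the printed locus held or overlapped another gene, the members were higher by more. The 12 members at such loci had a median change of 0.38, with 11 above the median of all genes, and the 27 at unshared loci had a median of 0.21, with 19 above. Of the 12 members 8 were at least 25% higher in FPKM + 1, and of the 27 members 6. Over all kept genes the order was the other way, with medians of 0.10 at 3852 shared loci and 0.12 at 6793 unshared loci. At unshared loci 22.1% of all kept genes were at least 25% higher on that scale, so the 6 of 27 members (22.2%) stood near the background by that measure. The 12 were Pold1, Lig1, Gins2, Cdc45, E2f1, Tk1, Orc1, Mcm7, Rfc4, Pola1, Ccne2 and Slbp. The part of shared loci in the members' median was not tested beyond this split.

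Other genes of the pathway, from lists drawn up beside the 39, were higher to a smaller degree. Of 102 such genes that passed the filter, 62 lay above the median of all genes, 1 was at least 2-fold higher and none was at least 2-fold lower, with a median change of 0.16 that was 0.04 with the median ratio set to 1 and -0.01 with FPKM totals set equal. The 19 other subunits of the same complexes had a median of 0.22, led by Prim2 and by the RPA subunit gene Rpa3 (24.2 to 34.2 FPKM), with the kinase subunit gene Dbf4 and Pole3 at the low end. In the list of 34 fork, checkpoint and firing factors the median was 0.16. Among its highest changes was that of the checkpoint kinase gene Chek1 (11.3 to 15.8 FPKM), and its lowest were those of the topoisomerase gene Top1 (39.6 to 37.1 FPKM) and Cdca7 (35.5 to 33.8 FPKM). Among 9 other genes of histone supply the median was 0.16, with the histone variant gene H2afx (355 to 497 FPKM) and the acetyltransferase gene Hat1 (60.9 to 84.3 FPKM) highest and Npat (13.5 to 13.9 FPKM) and Casp8ap2 (23.3 to 24.3 FPKM) lowest.

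The 16 other nucleotide supply genes had a median of 0.12, close to that of all genes, and held members that differed in sign. The guanine nucleotide synthesis gene Impdh2 (1.72 to 2.80 FPKM) and the purine synthesis gene Paics (116 to 158 FPKM) were highest. Samhd1, whose product breaks down deoxynucleotides, was lowest at 104 and 72.3 FPKM, a ratio of 0.698 (0.674 to 0.723). Dctpp1, which encodes another enzyme that removes deoxynucleotides, stood at 99.9 and 74.9 FPKM, a ratio of 0.750 with an interval of 0.697 to 0.807. Both lay below 1 while Rrm1, Rrm2, Tyms and Tk1 lay above it.

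The 24 other G1/S regulators had a median of 0.11, or -0.01 with the median ratio set to 1, but held the largest single changes of these lists. Cdkn1a encodes the CDK inhibitor p21, which blocks entry into S phase and binds PCNA. It stood at 11.1 FPKM with WT APCs and 44.8 FPKM with OX40L-TG APCs, a ratio of 4.05 (3.61 to 4.55). The authors' deposited table lists Cdkn1a with a log2 ratio of 2.05 and a p-value of 5e-05, a comparison of libraries. The D cyclin gene Ccnd3 stood at 83.3 and 161 FPKM (ratio 1.94, interval 1.87 to 2.01). The lowest of that list were Fbxw7, whose product marks cyclin E for degradation (21.4 to 17.1 FPKM), and the CDK inhibitor gene Cdkn2c (14.9 to 12.2 FPKM). The inhibitor gene Cdkn1a and the D cyclin gene Ccnd3 were thus both higher in the library in which most replication genes were slightly higher. None of the 39 members is among the 398 genes of the authors' deposited table, which holds genes with an absolute log2 ratio of at least 1.

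**Figure D5:**
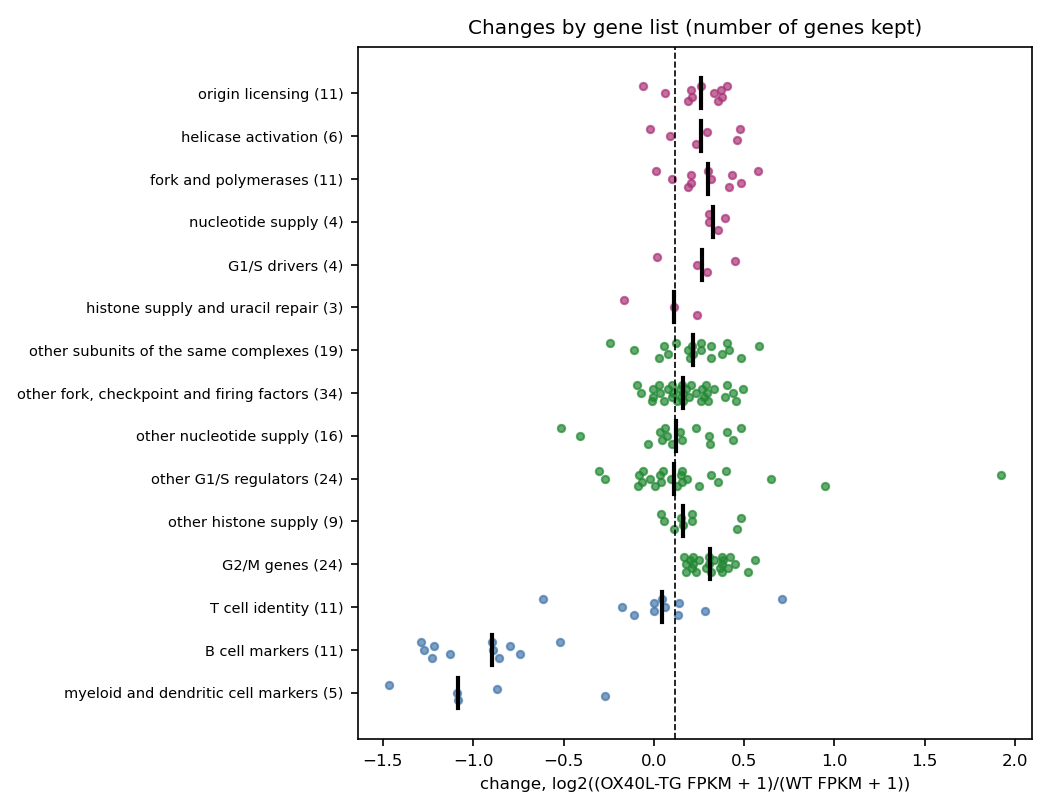
Change on the log2(FPKM + 1) scale for each kept gene (points) by list, with the number of genes in brackets, thick bars at list medians and the median of all genes dashed; the 39 members are purple, other cell cycle lists green and cell type lists blue. The 4 nucleotide supply genes and all 24 G2/M genes lie to the right of the dashed line at 0.11, and the B cell and myeloid markers lie below 0.

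Mitotic genes were higher by a like amount. The 24 G2/M genes had a median change of 0.31 and none reached 2-fold; every one of the 24 exceeded the all-gene median. The highest were Nusap1 (61.04 to 90.4 FPKM) and Aurka (47.8 to 69.1 FPKM), and the lowest Incenp (43.5 to 48.9 FPKM) and Ttk (13.6 to 15.5 FPKM). Their promoters differed from those of the replication genes in motif content, with an E2F word in 1 of 19, CCAAT in 16 of 19 and TTTGAA in 13 of 19. The difference between the medians of the mitotic and the replication genes, 0.31 and 0.29, cannot be tested with 1 library per condition.

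Markers of other cell types differed between the same libraries. The 12 B cell markers summed to 63.4 FPKM with WT APCs and 25.9 FPKM with OX40L-TG APCs, and all 11 with at least 1 FPKM were lower, with a median change of -0.90 and 5 at least 2-fold lower. The 14 myeloid and dendritic cell markers summed to 16.9 and 6.24 FPKM, and the 5 with at least 1 FPKM were all lower. Among those under 1 FPKM in both libraries, Zbtb46 was higher (0.788 to 0.934 FPKM) and all others were lower. Clec9a and Siglech were listed at 0 with OX40L-TG APCs, but stood at only 0.0249 and 0.0511 FPKM with WT APCs. Among the T cell identity genes 8 of 11 were above 0 and 4 above the median of all genes, with a median of 0.05, or -0.08 once the median ratio is 1. The summed FPKM of the 39 replication genes came to 2035 (WT APCs) and 2421 (OX40L-TG APCs), a ratio of 1.19, against 1.07 for the T cell identity genes and 1.13 for all annotated genes. What part the lower share of B cell and myeloid RNA has in the change of the replication genes was not tested.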

How the data were processed

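RNA-seq of 1 library per condition was analysed from the authors' processed files. The authors deposited FPKM values per gene; the submitters' processing notes name TopHat2, Cuffdiff and mm9. For tool versions, gene models and the handling of strand: not given in the sources used here. Another deposited table by the authors holds the log2 FPKM ratio and a p-value for 398 genes. Its FPKM values were, by median, 0.976 (WT APCs) and 0.999 (OX40L-TG APCs) of the full-table values, so its ratios run slightly higher. No member is among its genes, and the members' intervals were not computed on that scale. Most full-table values with 7 or more significant digits end in 5 (99.0% of 9790 with WT APCs), the form that a mean of a pair of shorter numbers takes. Printed coordinates are the authors'. For 99.7% of the genes matched to a symbol the printed locus overlaps the same gene in GRCm38. The printed loci thus match GRCm38, although the notes name mm9, a different build.

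Entrez identifiers were matched to RefSeq symbols (13030 of 13056). Rows without one were left out of the comparison. Genes under 1 FPKM in both libraries were left out, and a pseudocount of 1 was added before log2. All 39 members passed. A gene counted as called at 2-fold. Depth came from 416 genes under 0.3 FPKM with transcripts of at least 1500 bases: FPKM ratios between libraries were ratios of small whole numbers, within 0.2%, for 52.2% of them, at a depth ratio of 1.15. Fragment numbers used the median length of curated transcripts in GENCODE M21, with no correction for fragment length, and are rough for short genes; the smallest number behind a member was 495. A shared locus is one that holds another non-pseudogene gene of RefSeq or overlaps another annotated row. The procedure was tested on simulated whole-number fragments with exactly known transcript lengths. The deposited values may be means and the lengths used here are estimates. That test therefore does not show how well depth was recovered from these data. The search for PCNA-binding peptides was not run, since protein sequences were not used here.

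Named genes were all 39 members, with ratios for the 8 highest and 8 lowest changes and for the MCM2-7, cyclin E and E2F genes, and in each related list the 2 highest and 2 lowest; 1 gene under this rule is not reported here. Members and lists were chosen with earlier results of these data known. Analyses used Python 3.11.15, pandas 2.3.3, numpy 2.4.6 and scipy 1.17.1.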

Additional observations from a re-analysis of the deposited data

How the results depend on the processing

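No paired analysis was possible because each condition has 1 library. None of the 39 members reached 2-fold in either direction with a pseudocount of 0.1 or 5, without the filter or with one at 5 FPKM, at unshared loci, or under either scaling. With the pseudocount of 1, none reached 1.5-fold and 14 were at least 25% higher in FPKM + 1. The members' median of 0.29 was 0.17 with the median ratio of well-expressed genes set to 1 and 0.12 with FPKM totals set equal, which subtract about the same amount from every gene. It ran from 0.21 (unshared loci) to 0.30 (pseudocount of 0.1) otherwise. The number above the median of all genes, 30, was 19 of the 27 members at unshared loci, where fewer genes were counted, and 30 to 33 under the other settings. Under both scalings the changes of Mcm2, Gins3, Rfc3, Rpa2, Ccne1 and Slbp turned below 0. With totals set equal the medians of the lists of fork factors, nucleotide supply, G1/S regulators, histone supply and T cell identity also did (-0.01, -0.05, -0.06, -0.01 and -0.13), as did that of the 3 histone supply and uracil repair members (-0.06). Choosing another background leaves the counts past a fold as they are, so it was run for the count above the median alone. With 1 library per condition, the spread between cultures is unknown.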

Other observations

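Features without an Entrez identifier were also listed at the loci of the replication genes. At the printed loci of 13 of the 39 genes there were 21 such features, 7 of them with assembled-locus (XLOC) identifiers. The coordinates printed for each feature are those of the whole locus. Whether a feature overlaps the replication gene itself or another part of the locus is therefore not known. None exceeded 2.89 FPKM with WT APCs or 2.59 FPKM with OX40L-TG APCs. At Ccne2, 1 of these stood at 1.78 FPKM with WT APCs and was listed at 0 with OX40L-TG APCs, beside 16.5 and 20.5 FPKM for the annotated gene. At Ccne1, 1 stood at 1.10 and 0.211 FPKM and another at 0.000450 and 1.80 FPKM, beside 29.2 and 29.5 FPKM. At Tyms, 1 stood at 2.64 and 1.68 FPKM, opposite in direction to the annotated gene (14.2 and 18.4 FPKM).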
